A study of Homo sapiens with 15 samples.

Results

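The transcripts described here are those of 10 genes of the BCL2 family, taken by their symbols from the 43388 gene symbols counted in each library: the pro-survival members BCL2, BCL2L1 and MCL1, and the pro-death members BAX, BAK1, BBC3, PMAIP1, BID, BCL2L11 and BAD. They were measured by RNA-seq in A549, an established human lung adenocarcinoma line of epithelial origin, held for 72 hours under hyperoxia, meaning 95% oxygen, or under normoxia, meaning 21%. At each oxygen level, 3 libraries came from cells given 1e-05 mM ATRA (all-trans retinoic acid) 24 hours beforehand, 2 from cells given its ethanol vehicle, and 2 from cells that received neither, called here the libraries without vehicle. One further library has labels that contradict each other on its treatment and enters no comparison. Nothing in the sources used here says that the libraries of a group came from separate cultures, so p-values measure the spread between these samples, which may be technical.

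The BCL2 family decides whether the outer membrane of mitochondria stays intact. BAX and BAK1 are the effectors that assemble into pores and release cytochrome c, which starts the caspase cascade. BCL2, BCL2L1 (BCL-XL) and MCL1 hold them in check, and the BH3-only members (BBC3 or PUMA, PMAIP1 or NOXA, BID, BCL2L11 or BIM, and BAD) relieve that restraint or activate the effectors directly. Injury of lung epithelium by high oxygen is known to involve this mitochondrial route to cell death.

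Counts on genes numbered between 2642377 and 5605072 in the 14 libraries with a group, so that 3 counts, the smallest amount taken as detectable, correspond to 0.530 to 1.15 CPM (counts relative to the TMM-adjusted size of the library, counting error only). Replicate 1 of the hyperoxia libraries without vehicle stood apart. It had counts on 12657 genes, against 16465 to 20108 in the other 13 libraries, and its median correlation with the other libraries was 0.799, against 0.888 to 0.925. Results from the libraries without vehicle are therefore given with and without it. Without it, that comparison has 1 hyperoxia library and a spread taken from the other groups, so only fold changes are given. Of 4 genes that respond to retinoic acid, 3 were upregulated by ATRA in hyperoxia (1.52% of all genes were) and 4 in normoxia (0.816% were). Of the defining markers of other cell types, PTPRC (leukocytes) had at most 1 count in any library, and VWF (endothelium), SFTPA1 and SFTPA2 (alveolar type II cells) had 0. The summed level was 0 to 8.29 CPM in hyperoxia and 1.95 to 15.3 CPM in normoxia for 4 leukocyte markers, mainly CD14. It was 0 against 0 to 6.26 CPM for 3 endothelial markers, 0 to 3.44 against 1.56 to 12.9 CPM for 4 fibroblast markers, and at most 1.304 CPM at either oxygen level for 5 alveolar type II markers. COL1A1, a fibroblast collagen, was called lower in hyperoxia with vehicle (at most 1.41 CPM against at least 6.21 CPM, adjusted p = 0.0202) and without vehicle (0 counts against at least 5.28 CPM, adjusted p = 0.00569), by edgeR. CDH5 with ATRA (0 counts against at least 1.87 CPM, adjusted p = 0.0148) and CD14 without vehicle (0 counts against at least 1.95 CPM, adjusted p = 0.0140) were also called lower by edgeR. The summed level of 8 markers of the epithelial line was 8252 to 11783 CPM in hyperoxia and 14481 to 17145 CPM in normoxia. With vehicle, 6 of the 8 were downregulated in hyperoxia, as were 8.81% of all genes tested. EPCAM, also among the 8, was low throughout, at 0 to 1.06 CPM in hyperoxia and 1.74 to 4.80 CPM in normoxia. These marker differences moved with the oxygen differences described below, and their part in them was not tested. In RNA from whole cultures, more RNA per cell and a larger share of cells with the RNA cannot be told apart.

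In hyperoxia against normoxia with vehicle, 6 of the 10 members were upregulated and none was downregulated, where 17.5% of all 14957 genes tested were DE genes (8.68% higher and 8.81% lower). A gene counted as a DE gene when edgeR's quasi-likelihood test gave it an adjusted p under 0.05. The members that rose were the effectors BAX and BAK1, the BH3-only genes BBC3 and PMAIP1, and the pro-survival genes BCL2L1 and MCL1. With ATRA in both arms, 5 members rose (background 22.7%, with 11.4% higher and 11.3% lower), and without vehicle 5 rose (background 15.2%, with 7.57% higher and 7.58% lower). The same 5 genes, BAX, BAK1, BBC3, PMAIP1 and BCL2L1, rose in all 3 comparisons. The comparisons share no library, but the fits behind them do, so the calls are not independent. Among the 7 pro-death members the median log2 fold change was 1.12 with vehicle, 1.14 with ATRA and 1.68 without vehicle. Among the 3 pro-survival members it was 0.50, 0.04 and 0.19, and over all genes tested it was 0.01, 0.01 and -0.10. No test was made of the difference between the classes. Leaving out the library that stood apart, the log2 fold changes of the 5 genes without vehicle lay between 1.08 (BCL2L1) and 2.81 (BBC3). In a fit of only its 4 libraries, which called 58 genes in all, the comparison without vehicle called none of the 5 genes (adjusted p from 0.0791 to 0.173, edgeR).

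**Figure D1:**
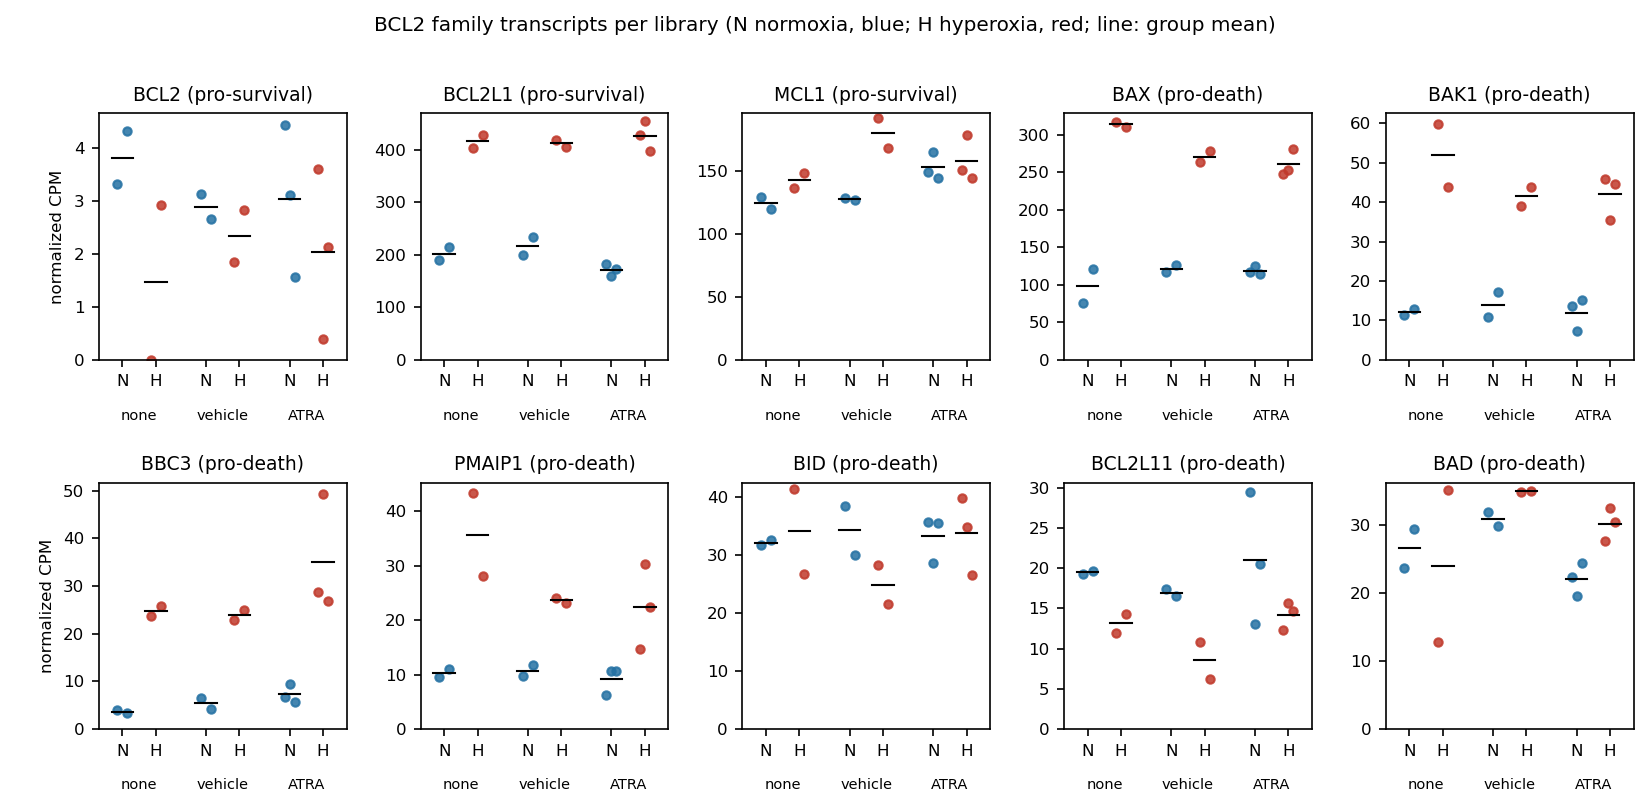
Normalized level in CPM of each member in each of the 14 libraries, one panel per gene with its own linear axis from 0. Points are libraries in normoxia (N, blue) or hyperoxia (H, red) with no vehicle (none), vehicle or ATRA, and lines are group means. Hyperoxia and normoxia do not overlap for BCL2L1, BAX, BAK1, BBC3 and PMAIP1, whereas BCL2 lies below 5 CPM in every library.

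BAX, the cytosolic effector that moves to mitochondria, is on chromosome 19 (GRCh38.p14, 48954875 to 48961798, plus strand). It stood at 264 and 278 CPM in the hyperoxia vehicle libraries and at 116 and 126 CPM in their normoxia counterparts. Over all 7 hyperoxia libraries it ranged from 248 to 316 CPM (median 278), and over the 7 normoxia libraries from 75.7 to 126 CPM (median 117). The lowest hyperoxia library was thus well above the highest normoxia library, a separation in this direction that 6.34% of 15339 genes showed (7.31% showed the opposite one). The log2 fold change of BAX was 1.16 with vehicle (standard error 0.14, adjusted p = 2.59e-06), 1.14 with ATRA (standard error 0.11, adjusted p = 1.80e-07) and 1.68 without vehicle (standard error 0.18, adjusted p = 1.31e-05), all from edgeR. The last was 1.66 without the library that stood apart.

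BAK1, the effector that resides in the mitochondrial membrane, is on chromosome 6 (33572552 to 33580276, minus strand). Its level was 39.0 and 43.96 CPM in the hyperoxia vehicle libraries and 10.8 and 17.2 CPM in the normoxia ones. Across the 7 libraries of each oxygen level it ranged from 35.6 to 59.9 CPM in hyperoxia and from 7.18 to 17.2 CPM in normoxia, again without overlap. The increase, 2.89-fold with vehicle (95% interval 1.85 to 4.52, adjusted p = 0.00125 by edgeR), was 3.49-fold with ATRA (2.40 to 5.10) and 4.29-fold without vehicle (2.54 to 7.25). Without the library that stood apart, the last log2 fold change was 1.85 in place of 2.10.

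BBC3 showed the largest fitted change of the 10 members in each oxygen comparison. This BH3-only gene, on chromosome 19 (47220824 to 47232860, minus strand), encodes a protein that binds all the pro-survival members. The hyperoxia vehicle libraries held 86 and 142 counts of it (22.8 and 25.1 CPM) and the normoxia vehicle libraries 19 and 24 (6.60 and 4.26 CPM). Its levels ran from 22.8 to 49.4 CPM in hyperoxia (median 25.7) and from 3.36 to 9.36 CPM in normoxia (median 5.73). The highest value, 49.4 CPM, belonged to a single hyperoxia ATRA library, whose 2 fellow libraries lay at 26.9 and 28.8 CPM. The fold change was 4.55 with vehicle (95% interval 2.59 to 7.99, adjusted p = 0.000357), 4.77 with ATRA (3.06 to 7.45) and 6.75 without vehicle (adjusted p = 0.000596), by edgeR. As a log2 value the last was 2.75, and 2.81 once the library that stood apart was left out.

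PMAIP1, which encodes a BH3-only protein with a preference for MCL1, is on chromosome 18 (59899996 to 59904305, plus strand). Its level was 24.1 and 23.1 CPM in the hyperoxia vehicle libraries and 9.73 and 11.7 CPM in their normoxia counterparts. Hyperoxia libraries ranged from 14.6 to 43.3 CPM and normoxia libraries from 6.26 to 11.7 CPM. The 43.3 CPM came from the library that stood apart, and the 14.6 CPM from an ATRA library. The log2 fold change was 1.12 with vehicle (standard error 0.37, adjusted p = 0.0400), 1.27 with ATRA (standard error 0.31, adjusted p = 0.00542) and 1.80 without vehicle (standard error 0.42, adjusted p = 0.00899), by edgeR. Leaving out the library that stood apart, the value without vehicle was 1.44. The call with vehicle was the least firm of the PMAIP1 calls: it was lost in 7 of 17 alternative fits, DESeq2 among them (adjusted p = 0.0553), although the log2 fold change stayed between 0.98 and 1.40.

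Since BAX, BAK1, BBC3, PMAIP1 and BCL2L1 rose together, the stretch around the transcription starts of the members was searched for short motifs. The stretch ran from 250 bases before to 50 after the start, from RefSeq for GRCh38.p14. The BAX and BBC3 windows are shown because these genes rose and their windows held a match. Windows were matched for 9 of the 10 members, 15 in all, since some genes have several starts (not MCL1). Capitals mark matches to CACGTG, the E-box core, which reads the same on both strands. The E-box was added to the search after the sequences had been seen.
BAX, chr19:48954625-48954924, plus strand: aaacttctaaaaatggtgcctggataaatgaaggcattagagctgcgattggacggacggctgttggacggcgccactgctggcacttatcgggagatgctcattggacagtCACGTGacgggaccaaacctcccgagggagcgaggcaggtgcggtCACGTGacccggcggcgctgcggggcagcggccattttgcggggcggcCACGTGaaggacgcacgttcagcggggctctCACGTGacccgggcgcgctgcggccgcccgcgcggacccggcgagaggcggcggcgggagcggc
BBC3, chr19:47232618-47232917, minus strand: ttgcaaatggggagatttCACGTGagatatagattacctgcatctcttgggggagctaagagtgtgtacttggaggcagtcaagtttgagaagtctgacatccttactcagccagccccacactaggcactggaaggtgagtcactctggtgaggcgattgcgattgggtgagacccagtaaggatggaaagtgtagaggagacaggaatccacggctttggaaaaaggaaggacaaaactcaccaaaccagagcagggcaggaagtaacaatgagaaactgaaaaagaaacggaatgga

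The BAX window held 4 copies of CACGTG and the BBC3 window 1. Of the 5 BID windows, 2 that overlap held the same single copy. At least 1 copy is in 7.26% of all 35116 RefSeq windows of the same length and at least 4 in 0.0142%, which is 5 windows. The cut-off of 4 is the number in the BAX window itself, so this share is a description and not a test. AGGTCA, the half-site of retinoic acid receptors, searched on both strands, was in none of the 15 windows and in 13.8% of all. BAK1, PMAIP1 and BCL2L1, which also rose, had no match to either motif. A match describes the sequence alone, and binding was not measured.

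The other 3 BH3-only genes did not pass the test with vehicle, with ATRA or without vehicle. BID, which links death receptors to mitochondria once it is cleaved, lies on chromosome 22 (17734138 to 17774665, minus strand). Its levels overlapped, at 21.5 to 41.5 CPM in hyperoxia and 28.7 to 38.6 CPM in normoxia. The vehicle comparison gave a log2 fold change of -0.46 for BID (interval of the fold 0.498 to 1.06, adjusted p = 0.270, edgeR). With ATRA its log2 fold change was 0.02 (adjusted p = 0.969) and without vehicle 0.09 (adjusted p = 0.860), by edgeR. The value without vehicle was -0.27 when the library that stood apart was left out.

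BCL2L11, whose product BIM is a strong activator of BAX, is on chromosome 2 (111120914 to 111168445, plus strand). Given vehicle, it was at 10.9 and 6.18 CPM under hyperoxia and at 17.4 and 16.5 CPM under normoxia, opposite in direction to BBC3 and PMAIP1. Its log2 fold change was -1.01 with vehicle (95% interval -1.84 to -0.19, adjusted p = 0.0881), -0.58 with ATRA (adjusted p = 0.196) and -0.57 without vehicle (adjusted p = 0.392), from edgeR. The last was -0.45 without the library that stood apart. A fit of only the vehicle libraries called BCL2L11 lower (log2 fold change -1.03, adjusted p = 0.0161, edgeR). That fit called 4665 genes in all, where the fit of 10 libraries called 2616. All 7 hyperoxia libraries lay at or below 15.7 CPM and all 7 normoxia libraries at or above 13.1 CPM. In the mean of the 3 oxygen contrasts, a comparison over 14 libraries added after the data had been seen, BCL2L11 was downregulated (log2 fold change -0.72, standard error 0.24, adjusted p = 0.0292, edgeR). That comparison called 6 members higher, the 6 found with vehicle, and BCL2L11 lower (background 31.1%, with 15.5% in each direction). An alternative, also added after the data had been seen, left out the library that stood apart and replicate 1 of hyperoxia with ATRA. It had 1 hyperoxia library without vehicle, so only log2 fold changes are given, -0.65 for BCL2L11 and 0.36 for BAD.

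BAD, a BH3-only protein controlled by phosphorylation, is on chromosome 11 (64269828 to 64284704, minus strand). Given vehicle, it was at 35.0 and 35.1 CPM under hyperoxia and at 31.98 and 29.97 CPM under normoxia. The library that stood apart had 12.8 CPM, the lowest of all 14, while the other hyperoxia library without vehicle had 35.2 CPM. The log2 fold change of BAD was 0.18 with vehicle (adjusted p = 0.681), 0.44 with ATRA (adjusted p = 0.129) and -0.17 without vehicle (adjusted p = 0.782), all by edgeR. The last was 0.40 without the library that stood apart.

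BCL2L1 was the most abundant member by count and rose in every oxygen comparison. The gene is on chromosome 20 (31664452 to 31723963, minus strand), and its long product BCL-XL restrains BAX and BAK1, while gene-level counts do not separate it from the short pro-death splice form. It stood at 419 and 405 CPM in the hyperoxia vehicle libraries and at 198 and 233 CPM in the normoxia ones. All 7 hyperoxia libraries lay between 396 and 454 CPM and all 7 normoxia libraries between 159.8 and 233 CPM. The fold change was 1.90 with vehicle (95% interval 1.57 to 2.30, adjusted p = 2.83e-05), 2.48 with ATRA (2.12 to 2.90) and 2.06 without vehicle (adjusted p = 6.50e-05), by edgeR. On the log2 scale the last was 1.04, and 1.08 without the library that stood apart.

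MCL1, a pro-survival protein of very short half-life, is on chromosome 1 (150574558 to 150579610, minus strand). Given vehicle, it was at 192 and 169 CPM under hyperoxia and at 129 and 127 CPM under normoxia, 1.41-fold higher (95% interval 1.14 to 1.74, adjusted p = 0.0209, edgeR). With ATRA the levels overlapped, at 145 to 179 CPM in hyperoxia and 144 to 165 CPM in normoxia, with a log2 fold change of 0.04 (95% interval -0.21 to 0.29, adjusted p = 0.842, edgeR). Without vehicle the log2 fold change was 0.19 (adjusted p = 0.400, edgeR), and 0.25 without the library that stood apart. The call with vehicle was lost when any 1 of the 4 vehicle libraries was left out, which leaves 1 in its group. The log2 fold changes were then from 0.38 to 0.56.

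BCL2, the gene that named the family, on chromosome 18 (63123346 to 63320090, minus strand), was barely expressed in these cells. The hyperoxia vehicle libraries held 7 and 16 counts of it and the normoxia vehicle libraries 9 and 15. The other libraries had 0 to 20 counts, with the 0 in the library that stood apart, where the floor of 3 counts is 0.599 CPM. BCL2 was not called with vehicle (log2 fold change -0.28, 95% interval -2.33 to 1.76, adjusted p = 0.898), with ATRA (-0.49, 95% interval -2.18 to 1.198, adjusted p = 0.721) or without vehicle (-1.45, 95% interval -4.26 to 1.36, adjusted p = 0.486), by edgeR. The last was -0.38 without the library that stood apart. With that library as the only hyperoxia library without vehicle, the log2 fold change was -7.05, resting on its 0 counts.

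The counting did not state whether strand was used, and 3 members share their position with a gene on the opposite strand that holds many counts, so their reads cannot be told apart with certainty. ABALON, antisense to BCL2L1, had 0.633 to 0.893 counts per BCL2L1 count in the 14 libraries. ABALON itself was upregulated with vehicle (log2 fold change 0.76, standard error 0.15, adjusted p = 0.00107, edgeR), with ATRA (1.10) and without vehicle (0.90). MIR4435-2HG had 197% as many counts as BCL2L11 over all libraries, 1.37 to 5.51 per BCL2L11 count in hyperoxia and 0.858 to 1.62 in normoxia. Its own log2 fold change with vehicle was 0.48 (standard error 0.29, adjusted p = 0.308, edgeR), opposite in sign to that of BCL2L11, and in the mean of the 3 oxygen contrasts it was called higher (0.61, adjusted p = 0.0149, edgeR). GPR137, opposite BAD, had 179% as many counts as BAD and rose with ATRA (log2 fold change 0.75, adjusted p = 0.00973) and without vehicle (1.34, adjusted p = 0.00573), by edgeR. The overlapping genes of BAX, BAK1, BBC3, PMAIP1, MCL1, BID and BCL2, where there are any, held at most 5.08% as many counts as the member.

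**Figure D2:**
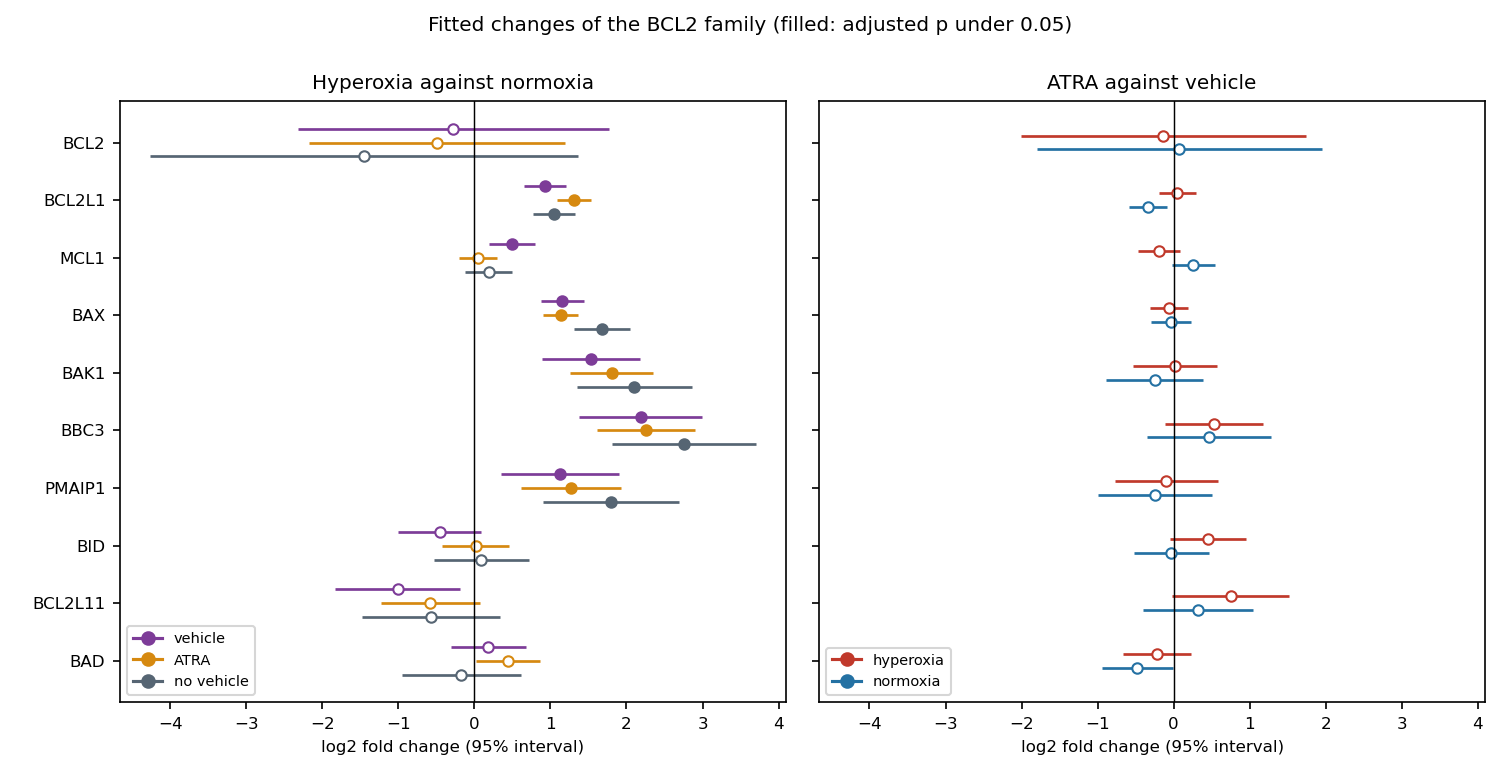
Fitted log2 fold change of each member with its 95% interval from edgeR. The left panel shows hyperoxia against normoxia with vehicle, with ATRA and without vehicle, the right panel ATRA against vehicle in hyperoxia and in normoxia, and filled points have an adjusted p under 0.05. BCL2L1, BAX, BAK1, BBC3 and PMAIP1 are filled in all 3 oxygen comparisons, MCL1 in 1, and no point is filled in the right panel.

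Levels of different genes were compared as CPM per kilobase of the RefSeq and Ensembl consensus transcript. On this scale BAX was highest and BCL2L1 second in all 6 groups, with no overlap between them. With vehicle, BAX was at 340 ± 12.3 CPM per kilobase (SD, n = 2) under hyperoxia and 152 ± 8.44 (SD, n = 2) under normoxia, and BCL2L1 was at 160.0 ± 3.89 and 83.8 ± 9.50. MCL1 and BAD followed, at 45.7 ± 4.27 and 37.7 ± 0.11 CPM per kilobase in hyperoxia with vehicle. In normoxia with vehicle these neighbours, at 32.3 ± 0.32 and 33.3 ± 1.52, overlapped. BBC3 was ninth of 10 in each of the 3 normoxia groups (2.94 ± 0.90 CPM per kilobase with vehicle) and between the sixth and the eighth place in the hyperoxia groups (12.96 ± 0.87 with vehicle, where it overlapped PMAIP1 at 12.4 ± 0.37). BAK1 moved from the sixth place in normoxia to the fifth in hyperoxia. BCL2L11 was ninth in each hyperoxia group, and BCL2 was last in all 6 groups, at 0.213 to 0.555 CPM per kilobase on average.

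The pro-death transcripts were set against MCL1 within the same library, and BAX against BCL2L1 as well. Per count of MCL1 there were 1.37 to 2.31 counts of BAX in the 7 hyperoxia libraries and 0.583 to 1.01 in the 7 normoxia libraries. For BAK1 the ratio was 0.199 to 0.439 against 0.0435 to 0.136, and for BBC3 it was 0.118 to 0.276 against 0.0279 to 0.0567. None of these 3 ratios overlapped between oxygen levels, and BCL2L1 per MCL1 did not either (2.18 to 2.95 against 0.968 to 1.84). BAX, BAK1, BBC3 and BCL2L1 separated by CPM alone as well, so the ratios are no separate result. The share of all genes whose ratio to MCL1 separated was not computed.

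Against BCL2L1, which itself rose, BAX overlapped, with 0.557 to 0.783 counts per BCL2L1 count in hyperoxia and 0.400 to 0.785 in normoxia. The mean ratio was higher in hyperoxia with vehicle (0.658 ± 0.040 against 0.564 ± 0.033, SD, n = 2 each) and without vehicle (0.755 ± 0.040 against 0.483 ± 0.117, SD, n = 2 each). With ATRA it was lower (0.615 ± 0.083 against 0.694 ± 0.079, SD, n = 3 each), a difference within the spread of the libraries. These ratios are descriptions with no test.

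**Figure D3:**
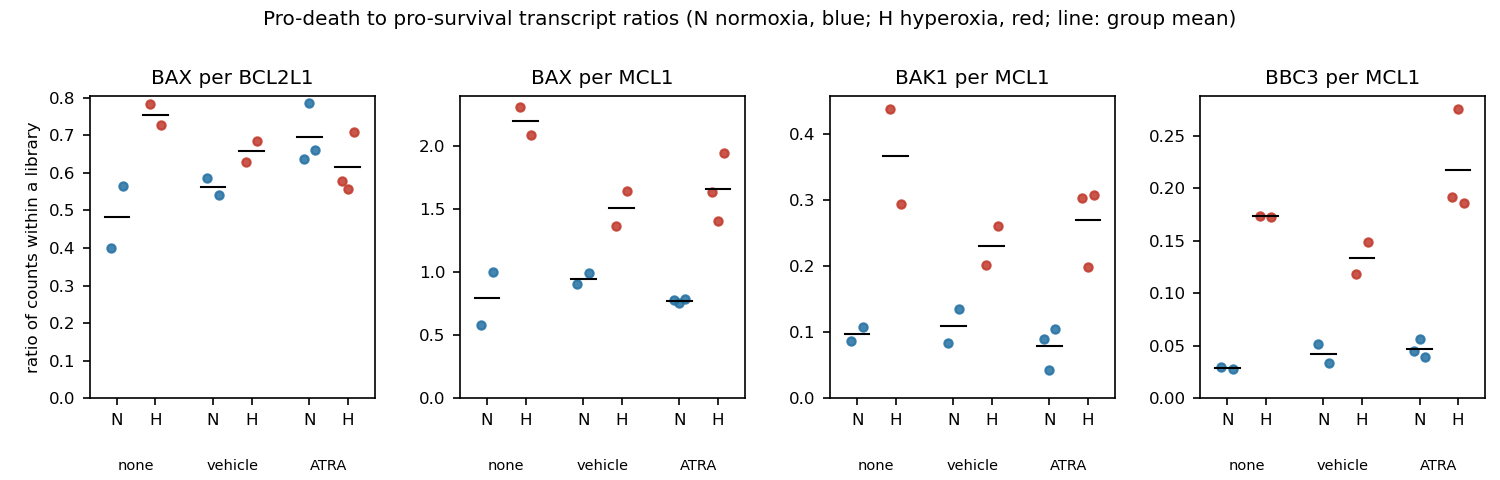
Ratio of the counts of a pro-death member to those of a pro-survival member within each library, on linear axes from 0, by oxygen (N normoxia, blue, H hyperoxia, red) and treatment, with lines at group means. BAX, BAK1 and BBC3 per MCL1 separate the 7 hyperoxia from the 7 normoxia libraries, as these genes do by CPM alone. BAX per BCL2L1 overlaps.

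As a single figure per library, the mean log2 CPM of the 7 pro-death members less that of the 3 pro-survival members was -0.80 in hyperoxia and -1.08 in normoxia with vehicle, -0.43 and -1.10 with ATRA, and -0.11 and -1.31 without vehicle. The differences were 0.28, 0.67 and 1.21. They rest in part on BCL2, whose counts were near 0. With BCL2 left out, an alternative added after the data had been seen, they were -0.05, 0.22 and 0.42, so that with vehicle the sign turned. Without the library that stood apart, the difference without vehicle was 0.70 in place of 1.21. Leaving out replicate 1 of hyperoxia with vehicle gave 0.17 in place of 0.28, and leaving out replicate 2 of hyperoxia with ATRA gave 0.43 in place of 0.67.

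ATRA changed none of the 10 members by the test. In hyperoxia, 0 members were called against vehicle (2.21% of all genes were) and 0 had an unadjusted p under 0.05. In normoxia 0 were called (1.25% of all genes were, 0.816% higher) and 2 had an unadjusted p under 0.05, namely BCL2L1 and BAD. DESeq2 also called 0 in both. For the effectors in hyperoxia the intervals were narrow for BAX, at 0.963-fold (95% interval 0.810 to 1.14), and wider for BAK1, at 1.02-fold (0.694 to 1.49). BCL2L1 was 1.03-fold (0.872 to 1.23) and MCL1 0.875-fold (0.723 to 1.06). The members with the largest differences in hyperoxia were BCL2L11, with 12.3, 15.7 and 14.6 CPM with ATRA against 10.9 and 6.18 CPM with vehicle (log2 fold change 0.75, 95% interval -0.02 to 1.52, adjusted p = 0.384), and BBC3 (log2 fold change 0.53, 95% interval -0.12 to 1.18, adjusted p = 0.487), by edgeR. In each of them the adjusted p missed the threshold, which does not show that the levels were alike.

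In normoxia, BCL2L1 was at 159.8 to 183 CPM with ATRA and at 198 and 233 CPM with vehicle, with a log2 fold change of -0.33 (95% interval -0.59 to -0.08, adjusted p = 0.311, edgeR). BAD was at 19.7 to 24.5 CPM with ATRA and at 29.97 and 31.98 CPM with vehicle (log2 fold change -0.47, adjusted p = 0.549, edgeR). MCL1 was at 144 to 165 CPM with ATRA and at 127 and 129 CPM with vehicle (log2 fold change 0.26, adjusted p = 0.633, edgeR). None of the 3 differences passed the adjustment over all genes.

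Whether ATRA altered the response to oxygen was tested by the interaction term, which called 0 members (0.14% of all genes, 0.1% higher). At an unadjusted p under 0.05 there were 2, BCL2L1 (interaction 0.38 on the log2 scale, 95% interval 0.03 to 0.74, adjusted p = 0.644) and MCL1 (-0.45, 95% interval -0.85 to -0.06, adjusted p = 0.607), from edgeR. DESeq2 called 0 as well. The larger rise of MCL1 with vehicle than with ATRA was therefore not established as a difference. Between the oxygen effects without vehicle and with vehicle, 0 members differed by edgeR (0.00652% of all genes did), and 1 had an unadjusted p under 0.05, BAX (0.52, 95% interval 0.00 to 1.04, adjusted p = 0.869).

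The 5 members that rose in all 3 oxygen comparisons also rose and fell together over the 14 libraries, with Pearson's r between 0.81 (BBC3 and PMAIP1) and 0.95 (BCL2L1 and BAK1), a description in which oxygen sets both sides. Among all genes tested, those whose log2 CPM followed BCL2L1 most closely were CAPN2 (r = 0.989), CDKN1A (0.987) and GDF15 (0.980). For BAX they were AJUBA (0.989), ZBTB4 (0.980) and AEN (0.979), for BAK1 they were GSS (0.988), RNF10 (0.982) and BBS4 (0.979), for BBC3 they were AXL (0.975), RUNX1 (0.971) and ZNFX1 (0.967), and for PMAIP1 they were VRK3 (0.954), TSSC4 (0.951) and TMEM33 (0.947), all over 14 libraries.

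Of 13 other BCL2 family genes, 9 passed the filter on low counts. In hyperoxia with vehicle 3 of the 9 were upregulated and none was downregulated, with a median log2 fold change of 0.25. Of all genes tested, 8.68% were higher and 8.81% lower. BCL2L2, a pro-survival gene (BCL-W), stood at 71.6 and 77.2 CPM against 25.0 and 32.5 CPM in normoxia (log2 fold change 1.35, standard error 0.23, adjusted p = 0.000202, edgeR). With ATRA in both arms its log2 fold change was 0.55 (adjusted p = 0.0380, edgeR), a call lost in 11 of 15 alternatives, and the interaction did not pass the test (-0.80, adjusted p = 0.504, edgeR). BCL2A1, a pro-survival gene under NF-κB control, rose from 3 and 5 counts in the normoxia vehicle libraries to 41 and 32 in the hyperoxia ones (log2 fold change 3.07, standard error 0.83, adjusted p = 0.0118, edgeR). It was not called with ATRA in both arms (log2 fold change -0.01), where it had 16 to 25 counts in hyperoxia and 12 to 26 in normoxia, or without vehicle (1.69, adjusted p = 0.393, edgeR). BCL2L13 was the third of the upregulated genes (0.61, adjusted p = 0.0243, edgeR). It is named outside the rule for naming genes, as are HTRA2, VDAC1, AKT1, BAG1, HUWE1 and the caspases below, after their values had been seen.

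Downstream of the pore, 17 effectors and inhibitors of mitochondrial death were tested. In hyperoxia with vehicle 3 were upregulated and 2 downregulated (median log2 fold change -0.00), where 8.68% of all genes tested were higher and 8.81% lower. BIRC3 (cIAP2), an inhibitor of apoptosis and NF-κB target, stood at 477 and 430 CPM in the hyperoxia vehicle libraries and at 51.1 and 45.4 CPM in the normoxia ones (log2 fold change 3.24, standard error 0.19, adjusted p = 1.68e-10, edgeR). Its relative BIRC2 (cIAP1) rose by 1.10 on the log2 scale (adjusted p = 0.000545) and with ATRA by 0.61 (adjusted p = 0.0106), and was not called without vehicle (0.53, adjusted p = 0.141), by edgeR. BIRC5 (survivin), an inhibitor of apoptosis that also acts in mitosis, was at 35.5 and 25.2 CPM against 120.3 and 125 CPM (log2 fold change -2.03, standard error 0.25, adjusted p = 4.94e-06, edgeR). The remaining calls were HTRA2 (higher) and VDAC1 (lower), while cytochrome c (CYCS), APAF1 and caspases 9, 3, 6 and 7 were not called.

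BIRC3 was also the single gene of these lists that ATRA changed. In hyperoxia it was at 198, 233 and 311 CPM with ATRA and at 477 and 430 CPM with vehicle (log2 fold change -0.88, 95% interval -1.19 to -0.57, adjusted p = 0.00152, edgeR). In normoxia it was at 68.3, 65.2 and 61.4 CPM with ATRA and at 51.1 and 45.4 CPM with vehicle (log2 fold change 0.44, adjusted p = 0.401, edgeR). The interaction was -1.31 as a log2 value, with a standard error of 0.23 (adjusted p = 0.0145, edgeR). Without replicate 1 of hyperoxia with vehicle, which leaves 1 library in that group, the effect in hyperoxia was -0.81 and lost its call. The call was also lost with controls without vehicle (-0.70, adjusted p = 0.0989, edgeR), and the interaction lost its call in 6 of 15 alternatives.

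Of 19 controllers of the family, all of which were tested, 2 were upregulated and 3 downregulated in hyperoxia with vehicle (median log2 fold change -0.05). Of all genes tested, 8.68% were higher and 8.81% lower. The lower controllers were AKT1, BAG1 and TRIM17. FBXW7, part of a ubiquitin ligase that marks MCL1 for degradation, was at 21.2 and 20.7 CPM against 9.73 and 10.3 CPM (log2 fold change 1.06, standard error 0.32, adjusted p = 0.0262, edgeR), and HUWE1, another ligase for MCL1, rose by 0.41 on the log2 scale (adjusted p = 0.0224, edgeR). TRIM17, whose product marks MCL1 for degradation as well, held 1 and 3 counts under hyperoxia and 16 and 23 under normoxia (adjusted p = 0.0212, edgeR). It was not called with ATRA (log2 fold change -0.66, adjusted p = 0.536) or without vehicle (-1.97, adjusted p = 0.324), by edgeR. The calls of FBXW7, TRIM17 and BCL2A1 with vehicle were each lost in 5 of 17 alternatives, among them the fit of all 14 libraries. Against vehicle, ATRA changed 0 of the 19 controllers and 0 of the 9 other family genes at either oxygen level. Of all genes tested, 2.21% were called in hyperoxia and 1.25% in normoxia.

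**Figure D4:**
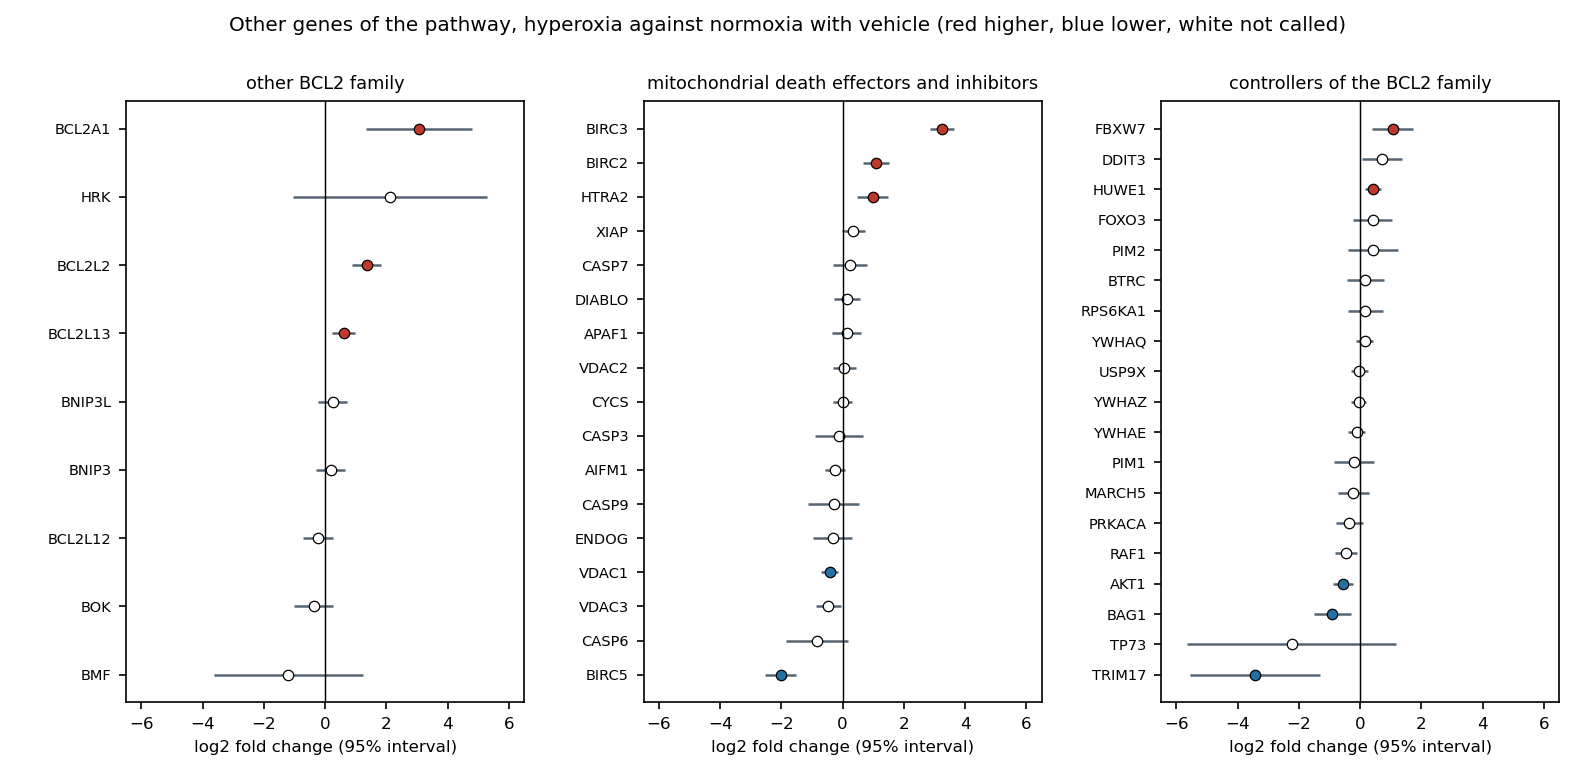
Log2 fold change in hyperoxia against normoxia with vehicle, with its 95% interval from edgeR, of the tested genes of 3 lists: other BCL2 family genes, mitochondrial death effectors and inhibitors, and controllers of the family. Red points were upregulated, blue points downregulated and white points not called, and BIRC3 has the largest rise of the second list and BIRC5 the largest fall.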

How the data were processed

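RNA-seq libraries of A549 cells were sequenced after a directional (stranded) preparation. Per the submitters' processing notes, the authors used Trimmomatic 0.38 for trimming, HISAT2 for alignment on hg38 and HTSeq for counting, and deposited raw counts per gene symbol, one file per library. The annotation release and the strand setting of the counting are not given in the sources used here. Of 15 libraries, 14 were grouped by their labels and 1 was left out. Rows that name no gene stayed out of library sizes (no feature, 48.6 to 55.3% of reads; ambiguous, 0.401 to 0.527%).

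Counts were scaled by TMM and filtered with filterByExpr (minimum count 10, total 15). They were tested with edgeR 4.0.16 (R 4.3.3), glmQLFit and glmQLFTest, with Benjamini-Hochberg adjustment over all genes tested. The vehicle and ATRA comparisons used 10 libraries in 4 groups (14957 genes), and the comparison without vehicle used 14 libraries in 6 groups (15339 genes). Intervals cover 95%. On simulated counts for the vehicle comparison (200 of 14957 genes changed), edgeR recovered 33% of 2-fold and 68% of 4-fold changes. Alternatives were DESeq2 1.42.0, RLE size factors, no filter, other sets of libraries and each library left out. Promoter windows and gene positions came from RefSeq for GRCh38.p14, and transcript lengths, strands and overlapping genes from GENCODE. Plots were made in Python 3.11.15 (matplotlib 3.10.9).

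All 10 members were named, with genes of 3 wider lists called in hyperoxia with vehicle at a log2 fold change above 1 or below -1, or called with ATRA. For each member upregulated in all 3 oxygen comparisons, the 3 genes most like it in log2 CPM were named. The members and lists were chosen with earlier results of these data known. One gene of the controller list, and a motif search tied to it, are not reported here.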

Additional observations from a re-analysis of the deposited data

Results flagged for a closer look

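The library assigned to no group, whose title names hyperoxia while its treatment label names an adipogenic differentiation, had 4415705 counts on 19131 genes. In it, 7 of the 10 members lay above every normoxia library, as did 25.6% of the 15339 genes tested: BCL2L1 at 411 CPM, MCL1 at 175 CPM, BAX at 269 CPM, BAK1 at 44.3 CPM, BBC3 at 30.6 CPM, PMAIP1 at 22.0 CPM and BAD at 36.4 CPM. The highest normoxia values were 234, 165, 126, 17.2, 9.38, 11.7 and 32.05 CPM in the same order. No group was assigned from these values.

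The effect of ATRA on BIRC3 differed between oxygen levels by -1.31 as a log2 value (adjusted p = 0.0145, edgeR), from -0.88 in hyperoxia to 0.44 in normoxia. BIRC3 was lower with ATRA in 3 of 3 hyperoxia libraries, and the share of all genes that separated in this way was not computed. The adjusted p of the interaction reached 0.634 over the alternatives. Groups of 2 and 3 libraries were too small to be tested for outlying samples.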

How the results depend on the processing

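No paired analysis was possible because the labels give each library its own number and none is shared between groups. Over 970 fitted values of the 10 members, 53 changed sign (0 of them of members called in the comparison as reported), 18 calls were lost and 6 gained. BAX, BAK1, BBC3 and BCL2L1 kept their calls in all 17 alternatives with vehicle and all 15 with ATRA. Leaving out each library in turn, 5 members were called with ATRA in both arms, whose groups never fell to 1 library. In the other comparisons some of these fits left 1 library in a group, and their counts of calls are not given. A lone remaining library was assumed to vary like the other groups. Without hyperoxia replicate 2 without vehicle, the log2 fold change was -1.11 for BAD and -7.05 for BCL2, which had 0 counts in the remaining hyperoxia library. PMAIP1 without vehicle lost its call when either normoxia library without vehicle was left out, with log2 fold changes of 1.65 and 1.86. Fitting only the groups compared called 0 members without vehicle in place of 5, with fewer libraries behind the spread.

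The hyperoxia minus normoxia difference in the balance of pro-death less pro-survival members depended on how it was taken. By the median over members the difference was 0.12 with vehicle and 0.60 without vehicle, in place of 0.28 and 1.21. Without BCL2 the difference was -0.05 with vehicle and 0.42 without vehicle.

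With the libraries without vehicle as controls, the ATRA log2 fold changes that changed sign were, in hyperoxia, BCL2 0.61, MCL1 0.15, BAK1 -0.31, BID -0.02 and BAD 0.35, in normoxia, BCL2 -0.32, BAX 0.27 and BID 0.05, and in the interaction, BCL2 0.94, BAK1 -0.29, BBC3 -0.50, PMAIP1 -0.52, BID -0.07 and BCL2L11 -0.01. BCL2A1 with ATRA in both arms was 0.01 in the fit of 14 libraries. None of these values was called, and the cause was not tested.

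Leaving out each library, sign changes came in these ranges. In hyperoxia against normoxia with ATRA, MCL1 ranged from -0.08 to 0.10, BID from -0.13 to 0.15 and BCL2A1 from -0.67 to 0.30. Without vehicle, BID ranged from -0.27 to 0.31, BAD from -1.11 to 0.40 and BCL2A1 from -6.14 to 2.71. For ATRA in hyperoxia, BCL2 ranged from -0.79 to 0.27, BCL2L1 from -0.01 to 0.10, BAK1 from -0.07 to 0.11 and PMAIP1 from -0.37 to 0.15. For ATRA in normoxia, BCL2 ranged from -0.31 to 0.40, BAX from -0.10 to 0.02, BAK1 from -0.52 to 0.16, BID from -0.21 to 0.14 and BCL2L11 from -0.00 to 0.56. In the interaction, BCL2 ranged from -0.87 to 0.19, BAX from -0.09 to 0.03, BAK1 from -0.15 to 0.54, BBC3 from -0.26 to 0.39 and PMAIP1 from -0.14 to 0.39.

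Counts of all genes called moved by more than 1.5 times as follows. With vehicle, 2616 became 4665 (only the groups compared), 1420 (14 libraries), and 4764 (mean of the 3 oxygen contrasts over 14 libraries, added after the data had been seen). With ATRA in both arms 3391 became 1975 (14 libraries), and without vehicle 2324 became 58 (only the groups compared). For ATRA in hyperoxia 331 became 522 without a filter, 116 with 14 libraries and 66 with controls without vehicle, and in normoxia 187 became 300, 70 and 67. The interaction called 21 genes, 103 by DESeq2, 91 without a filter, 4 with 14 libraries and 3 with controls without vehicle. BCL2 had 0 to 20 counts per library, which limits the precision of its values.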
